A study of Arabidopsis thaliana with 4 samples.

Results

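Class III peroxidases are secreted heme enzymes of plants that use hydrogen peroxide to oxidise phenolic compounds. In cell walls they turn monolignols, the building units of lignin, into radicals that couple to one another, they cross-link wall proteins and phenolics, and some of them also produce reactive oxygen species. In Arabidopsis flowers, lignin has been described in the cells that are shed at the abscission zone, the layer at which petals, sepals and stamens detach, which is why the level of each peroxidase gene in the cells on either side of that layer is of interest. The 60 genes described here are a list of loci of this family, taken as listed, and all 60 were found among the 33602 genes counted. Sums and shares called the family's below are over these 60 genes only. Whether the list holds every gene of the family was not checked.

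The study sequenced RNA from residuum cells (REC), which stay on the receptacle after the organs have fallen, and from secession cells (SEC), which leave with the organs. Both came as protoplasts from plants of the Col-0 accession that carry the ebp1 mutation, grown at 22 °C in 16 h of light, and both were sorted for nuclear green fluorescence from a reporter driven by the QRT2 promoter, a promoter active in the abscission zone. There were 2 REC and 2 SEC libraries. No wild-type cells were analysed, so that every value below describes ebp1 cells that carry the reporter, and nothing in the labels says that the replicates came from separate plants, so that p-values measure the spread between these libraries and no more. In bulk libraries, fewer cells of a type and less RNA per cell cannot be told apart. The libraries held 12191718 and 14338470 gene counts for REC and 13737549 and 16102115 for SEC. Levels are given as CPM, the count of a gene scaled to a common library total after normalization between libraries, and the amplification used no molecular identifiers, so that counting intervals cover counting error only.

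Several members lie side by side as close copies. Of the 60 members, 22 stood in 12 pairs of direct neighbours. PRXCA and PRXCB, described next, are close copies but not direct neighbours. PRXCA (AT3G49110, peroxidase 33) and PRXCB (AT3G49120, peroxidase 34), wall-located peroxidases known for cell elongation and for hydrogen peroxide release in defence, encode proteins that were 92.9% identical, and their aligned coding sequences differed at 99 of 1062 bases. The following stretches of 90 bases, from the same place in both coding sequences, are shown because reads from the pair can be told apart only where capitals stand, which mark the 8 bases that differ. They were read from the RefSeq sequence of TAIR10.1, plus strand, at chr3:18201516-18201605 and chr3:18208812-18208901.
PRXCA: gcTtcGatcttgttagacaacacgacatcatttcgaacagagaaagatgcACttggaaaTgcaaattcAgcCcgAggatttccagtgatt
PRXCB: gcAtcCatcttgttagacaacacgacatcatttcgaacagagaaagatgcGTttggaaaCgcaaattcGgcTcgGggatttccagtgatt

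AT4G37520 and AT4G37530 are neighbours on chromosome 4, at chr4:17631500-17633249 and chr4:17634696-17636401 on the plus strand, with proteins 89.4% identical and 75 differing bases among 990 aligned coding bases. Matching stretches of their coding exons, at chr4:17631789-17631878 and chr4:17634871-17634960 in TAIR10.1, differed at the 7 bases in capitals.
AT4G37520: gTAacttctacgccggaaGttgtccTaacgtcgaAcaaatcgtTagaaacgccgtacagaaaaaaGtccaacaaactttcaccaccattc
AT4G37530: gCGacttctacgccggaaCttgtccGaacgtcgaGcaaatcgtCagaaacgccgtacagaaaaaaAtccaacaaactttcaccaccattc

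The share of 50-base windows within exons that occur elsewhere in the nuclear genome was 7.23% for PRXCA, 7.47% for PRXCB, 4.97% for AT4G37520 and 4.9% for AT4G37530. Reads with several places to map were left out of the gene counts. Among the 60 members 12 had any such window, and 5 of those 12 were expressed at a level that allowed a test.

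Of the 60 members, 27 passed the filter on low counts and were tested. The other 33 did not, 15 of them with no count in any library and 18 with between 2 and 28 counts over the 4 libraries. The 60 members together took a similar part of the RNA in both cell types. Summed over the members, the level was 3100 and 3020 CPM in REC, against 3009 and 3421 CPM in SEC. The REC values lay between the SEC values, and so the summed level did not separate the groups. Members at 1 CPM or more numbered 25 and 25 in REC libraries and 24 and 23 in SEC libraries.

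PRX52, PRXR1, PRXCB, PRXCA and PA2 together gave 77.2% and 77.9% of the family's level per kilobase of transcript in REC libraries. In SEC libraries they gave 73.6% and 77.3%. Most of the family's level thus came from the same genes in both cell types, and what differed was the level of single members. These were not the first 5 per kilobase in either cell type. AT5G58390 ranked 4th in REC, where PRXCA ranked 6th. RCI3 ranked 5th and AT1G44970 6th in SEC, where PRXCA ranked 7th. Under edgeR's quasi-likelihood test with Benjamini-Hochberg adjustment over all 18384 genes tested, 4 of the 27 tested members (14.8%) were higher in SEC at an adjusted p under 0.05, where 2.18% of all tested genes were (2.67% in either direction). None of the 27 was higher in REC by that test, where 0.495% of all tested genes were. Without adjustment, 8 members were higher in REC (29.6%, against 9.46% of all genes) and 7 were higher in SEC (25.9%, against 14.1% of all genes) at a p under 0.05. DESeq2 called 4 members higher in REC and 7 higher in SEC, where it called 4.15% and 8.56% of all genes. By limma voom 0 members were higher in REC and 4 in SEC, where 0.495% and 1.75% of all genes were. The groups did not overlap for 22 members (81.5%, against 58% of all genes). Both REC libraries lay above both SEC libraries for 13 members (48.1%, against 29.8% of all genes), and both SEC libraries lay above both REC libraries for 9 (33.3%, against 28.2%). The median log2 difference, REC minus SEC, was 0.18 over the 27 members and 0.02 over all tested genes, with 14 members above 0 and 13 below. Members that passed the filter through one group alone had to differ, so these counts describe the expressed members only.

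**Figure D1:**
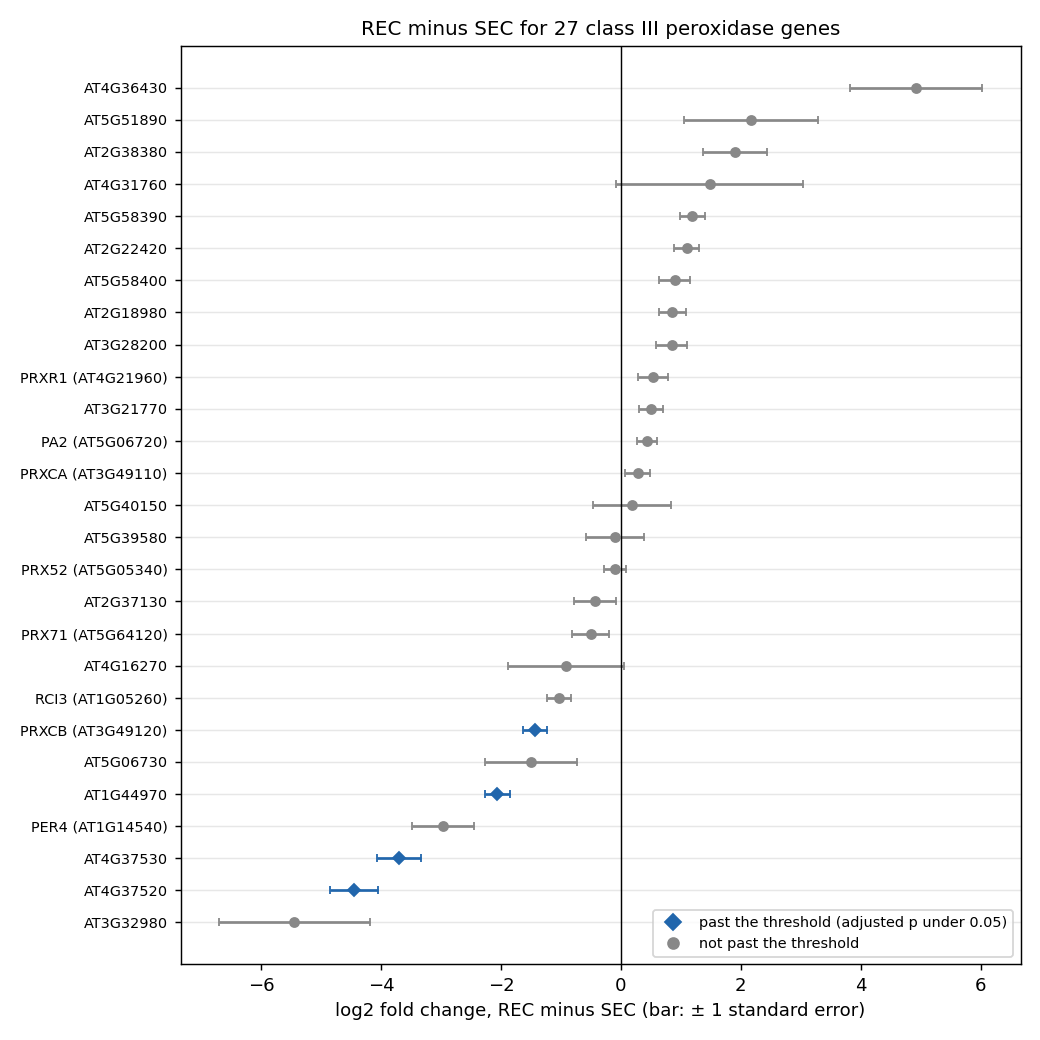
The log2 fold change, REC minus SEC, of each of the 27 tested class III peroxidase genes, with bars of 1 standard error from edgeR. The 4 blue diamonds, all left of 0, are the members past an adjusted p of 0.05; the sizes drawn for AT3G32980 and AT4G36430 rest on 3 counts in REC and 8 counts in SEC and depend on the prior count.

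The neighbours AT4G37520 and AT4G37530 had the largest differences among the 4 members that passed the test. AT4G37520 had 2.04 and 1.33 CPM in REC libraries, against 30 and 43.8 CPM in SEC libraries. Both SEC libraries stood far above both REC libraries, and AT4G37520 was 21.9-fold lower in REC (log2 -4.45 ± 0.40 SE, edgeR adjusted p = 0.0274). AT4G37530 had 4.79 and 4.94 CPM in REC libraries, against 80.3 and 46.5 CPM in SEC libraries. The groups did not overlap, although the SEC replicates differed from each other more than the REC replicates did, and AT4G37530 was 13-fold lower in REC (log2 -3.70 ± 0.37, edgeR adjusted p = 0.0284). Per kilobase of transcript, AT4G37530 ranked 19th among the members in REC and 10th in SEC. The count of AT4G37530 over that of AT4G37520 was 2.35 and 3.7 in REC, against 2.68 and 1.06 in SEC. These ratios overlapped between the groups, and 2 libraries against 2 cannot test them, since the smallest two-sided p of the exact permutation test is 0.333.

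The 2 genes are also alike in front of their annotated starts. Their upstream 250 bases in TAIR10.1, plus strand, at chr4:17631250-17631499 and chr4:17634446-17634695, are printed because these neighbours moved together. The capitals mark the longest run of identical bases, 32 long, which stands at a different distance from the start in each.
AT4G37520: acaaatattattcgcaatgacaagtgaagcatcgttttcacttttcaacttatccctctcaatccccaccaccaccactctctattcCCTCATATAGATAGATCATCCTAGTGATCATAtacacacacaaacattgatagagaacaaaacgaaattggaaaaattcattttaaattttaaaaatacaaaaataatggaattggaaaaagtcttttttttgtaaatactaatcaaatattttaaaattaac
AT4G37530: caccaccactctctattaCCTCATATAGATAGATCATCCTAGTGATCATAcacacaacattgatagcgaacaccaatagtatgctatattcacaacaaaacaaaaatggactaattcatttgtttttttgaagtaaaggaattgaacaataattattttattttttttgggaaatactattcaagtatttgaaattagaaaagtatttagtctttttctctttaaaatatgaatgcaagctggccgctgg

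The longest run shared by the same windows was 8 bases for PRXCA and PRXCB, 8 for AT5G58390 and AT5G58400, 9 for PA2 and AT5G06730, and 25 for AT2G38380 and AT2G38390. Known elements were sought in the 250 bases on both strands. The W box, searched as TTGACC or TTGACT, was present in 18 of the 60 members (30%), against 28.4% of 27443 genes. The G box, CACGTG, was present in 1 member (1.67%), against 6.49% of genes. The AC element of phenylpropanoid genes, searched as ACCTACC or ACCAACC, was present in 2 members (3.33%), against 3.79% of genes. None of these letters stood in the windows of the 4 genes that passed the test, which says only that they are not in these 250 bases.

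AT1G44970, at chr1:17002089-17003867 on the plus strand, also passed the test. It had 26.3 and 27.7 CPM in REC libraries, against 108 and 118 CPM in SEC libraries. The replicates lay close together within each cell type, and the gene was 4.18-fold lower in REC (log2 -2.06 ± 0.21, edgeR adjusted p = 0.029). By level per kilobase it was 15th of the members in REC and 6th in SEC. Leaving out REC replicate 1 gave an adjusted p of 0.196, and leaving out REC replicate 2 one of 0.0913, in fits where the lone REC library was taken to vary as the SEC pair did.

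PRXCB was the most abundant of the 4 members that passed, and its close copy PRXCA did not pass. PRXCB had 131 and 132 CPM in REC libraries, against 398 and 314 CPM in SEC libraries, with no overlap. It averaged 131 ± 1.28 CPM in REC and 356 ± 59.1 CPM in SEC (SD, n = 2 each), and was 2.71-fold lower in REC (log2 -1.44 ± 0.20, edgeR adjusted p = 0.0383). The adjusted p was 0.0505 under upper-quartile scaling, 0.323 when REC replicate 1 was left out and 0.223 when REC replicate 2 was.

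PRXCA had 113 and 108 CPM in REC libraries, against 100 and 82.1 CPM in SEC libraries. Its REC libraries were slightly the higher, and the difference did not pass the test (log2 0.28 ± 0.21, edgeR adjusted p = 0.479). The ratio of PRXCB to PRXCA counts, which depth and scaling cannot move, was 1.16 and 1.22 in REC, against 3.98 and 3.83 in SEC. The mean log2 ratio differed by -1.71 between the cell types, REC minus SEC, with no overlap; the exact permutation test of 2 against 2 libraries cannot go below its two-sided p of 0.333. PRXCB thus made up 3.89% and 4.1% of the family's level per kilobase in REC libraries, against 12.2% and 8.47% in SEC libraries.

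AT3G32980 encodes a protein 89.2% identical to that of PRXCB and was nearly absent from REC. It had 0.236 and 0 CPM in REC libraries, against 2.93 and 7.58 CPM in SEC libraries, from 3 counts in all in REC and 156 in SEC. The scaled count was 50.5-fold lower in REC, with an exact 95% counting interval of 17 to 248, while the test across genes gave an edgeR adjusted p of 0.0834. No 50-base window within the exons of AT3G32980 occurred elsewhere in the nuclear genome.

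**Figure D2:**
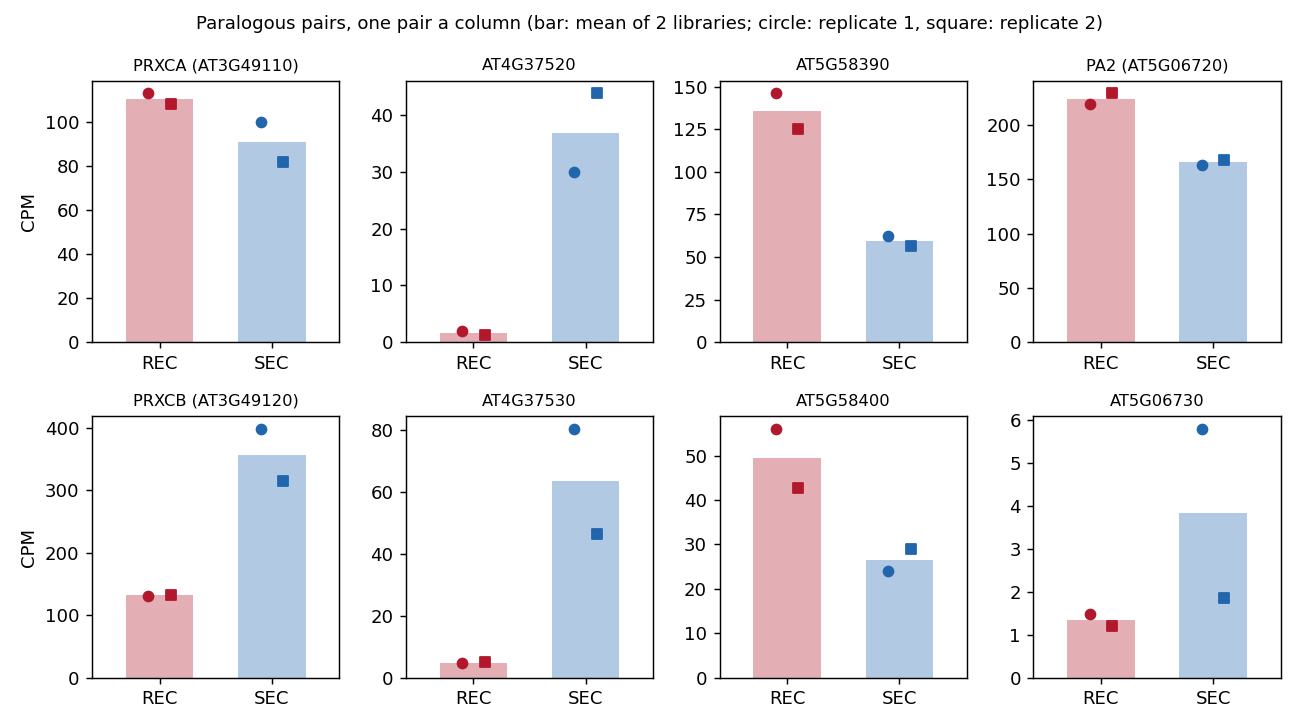
Levels of the 4 pairs of close copies in CPM, one pair a column, with bars for the mean of 2 libraries and points for each library. PRXCB (131 and 132 CPM in REC, 398 and 314 in SEC) is separated by cell type where PRXCA (113 and 108 in REC, 100 and 82.1 in SEC) is nearly level; AT4G37520 and AT4G37530 are both low in REC, and AT5G58390 and AT5G58400 are both the higher in REC.

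RCI3 and PER4 stood higher in both SEC libraries without passing the test. RCI3 (AT1G05260), a peroxidase named for its induction by cold, had 64.8 and 60.3 CPM in REC libraries, against 122 and 135 CPM in SEC libraries, with no overlap (log2 -1.04 ± 0.20, edgeR adjusted p = 0.0614). PER4 (AT1G14540) had 2.98 and 3.94 CPM in REC libraries, against 38.4 and 16 CPM in SEC libraries (log2 -2.97 ± 0.52, edgeR adjusted p = 0.0547). For both, the groups were apart. Their adjusted p fell below 0.05 with DESeq2, a replicate block, the length trend removed, and the block with the length trend removed. Those fits called 8.56%, 6.32%, 9.13% and 8.43% of all genes higher in SEC, where the main fit called 2.18%. PER4 also passed with no filter on low counts, where 3.61% of all genes were higher in SEC. The closest relative of RCI3 among the tested members, AT3G21770 with 72.9% identity, leaned the other way. AT3G21770 had 69.3 and 66.2 CPM in REC libraries, against 48.1 and 47.8 CPM in SEC libraries (log2 0.50 ± 0.20, edgeR adjusted p = 0.224). The count of AT3G21770 over that of RCI3 was 1.07 and 1.1 in REC, against 0.394 and 0.353 in SEC.

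Some markers of other cell types and of stress also differed between REC and SEC, and their part in these results was not tested. Of 6 xylem markers 4 were tested and 1 passed, MC9, a metacaspase of dying vessel cells, and the list summed to 7.69 and 6.14 CPM in REC libraries and 51 and 84 CPM in SEC libraries. MC9 made up most of that sum; XCP2 was at 0 in all libraries, the other 4 were at 2.2 CPM or less, CESA4 and CESA7 had positive log2 differences that did not pass the test, and the median log2 difference over the 4 tested was 0.37. Of 5 genes that respond to wounding and stress, as protoplast release can cause, WRKY33 and CYP81D8 were higher in SEC. ZAT12 and WRKY40, with log2 differences of -0.78 and -0.98, and ERF109, with 0.27, did not pass the test. This stress list summed to 1316 and 1311 CPM in REC, against 3052 and 3060 CPM in SEC. Of 3 mesophyll markers, CA1 and LHCB1.2 were higher in REC. RBCS1A had 1679 and 1340 CPM in REC, against 1845 and 1212 CPM in SEC, and did not pass the test (log2 -0.02). RBCS1A made up most of the list sum, which was 2218 and 1624 CPM in REC, against 1890 and 1255 CPM in SEC. Of 4 epidermis markers 1, PDF2, was higher in SEC, while ATML1, PDF1 and FDH had log2 differences of 0.29, 1.58 and 0.44 without passing the test (list sums 116 and 123 CPM in REC, 88.1 and 135 CPM in SEC). The phloem list of 2 genes, with APL at 0, summed to 9.26 and 9.34 CPM in REC and 3.32 and 0.514 CPM in SEC. Guard and myrosin cell markers (FAMA at 0) reached at most 2.67 CPM in sum, and pollen and tapetum markers (A6 and MS1 at 0) at most 3.15 CPM. All 6 abscission zone markers were detected, and 3 of them, IDA, ADPG2 and KNAT1, were higher in SEC. HAE, HSL2 and QRT2 had log2 differences of 0.80, 0.35 and -0.12 without passing the test. The list summed to 1537 and 1701 CPM in REC, against 2790 and 2996 CPM in SEC. KNAT1 alone had 476 and 508 CPM in REC, against 1924 and 1635 CPM in SEC.

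No member passed the test in the direction of REC, but several of the moderately expressed ones stood higher in both REC libraries. AT5G58390 had 146 and 125 CPM in REC libraries, against 62.1 and 56.7 CPM in SEC libraries (log2 1.19 ± 0.21, edgeR adjusted p = 0.0545). Its neighbour AT5G58400, with 71.8% protein identity, had 56 and 42.8 CPM in REC libraries, against 24 and 28.9 CPM in SEC libraries (log2 0.90 ± 0.26, edgeR adjusted p = 0.119). The copies were apart in the same direction, and the count of AT5G58400 over that of AT5G58390 was 0.383 and 0.343 in REC, against 0.386 and 0.51 in SEC.

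AT2G22420 had 75.1 and 80.3 CPM in REC libraries, against 34.8 and 37.7 CPM in SEC libraries (log2 1.10 ± 0.21, edgeR adjusted p = 0.0625). AT2G18980 had 54.7 and 48.2 CPM in REC libraries, against 26.5 and 30 CPM in SEC libraries (log2 0.86 ± 0.23, edgeR adjusted p = 0.103). AT3G28200, whose annotated transcript has a single exon, had 26.3 and 31.4 CPM in REC libraries, against 17.1 and 14.9 CPM in SEC libraries (log2 0.85 ± 0.26, edgeR adjusted p = 0.129). In all 3 genes the lower REC library exceeded the higher SEC library. AT5G58390 and AT2G22420 were past the threshold with DESeq2 and with no filter on low counts, where 4.15% and 1.21% of all genes were higher in REC. They also passed with a replicate block (2.86%), the length trend removed (4.75%) and both together (4.12%). The main fit called 0.495% of all genes higher in REC.

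Among members below 10 CPM on average, AT4G36430 and AT2G38380 were also the higher in REC. AT4G36430 had 9.81 and 7.14 CPM in REC libraries, against 0 and 0.514 CPM in SEC libraries. It rested on 232 counts in REC and 8 in SEC, a REC-to-SEC ratio of 29.8 with an exact 95% counting interval of 14.9 to 70, and its edgeR adjusted p was 0.0797. AT2G38380 had 5.26 and 11.3 CPM in REC libraries, against 2.16 and 2.25 CPM in SEC libraries (log2 1.90 ± 0.53, edgeR adjusted p = 0.112). Its neighbour AT2G38390, with a protein 89.4% identical, had no count in any library. A count of 0 in all libraries allows a level of up to 0.0533 CPM.

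AT5G51890, annotated for a role in the lignification of tracheary elements in roots, had 1.81 and 1.27 CPM in REC libraries, against 0.0772 and 0.578 CPM in SEC libraries. The groups did not overlap and the ratio of 42 to 10 counts was 4.32, with an exact 95% counting interval of 2.13 to 9.66, but the edgeR adjusted p was 0.318. The 118 bases it shares with AT5G51880 on the other strand could add counts from that gene, since the library kit does not mark the strand. Of the remaining members under 10 CPM, AT5G06730, AT4G31760, AT5G40150, AT5G39580 and AT4G16270 had adjusted p values between 0.31 and 0.925 under edgeR. AT4G16270 overlaps an antisense gene over 869 bases of its genomic span, introns included, and AT5G40150 overlaps one over 288 bases. Their counts therefore cannot be given to one strand.

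**Figure D3:**
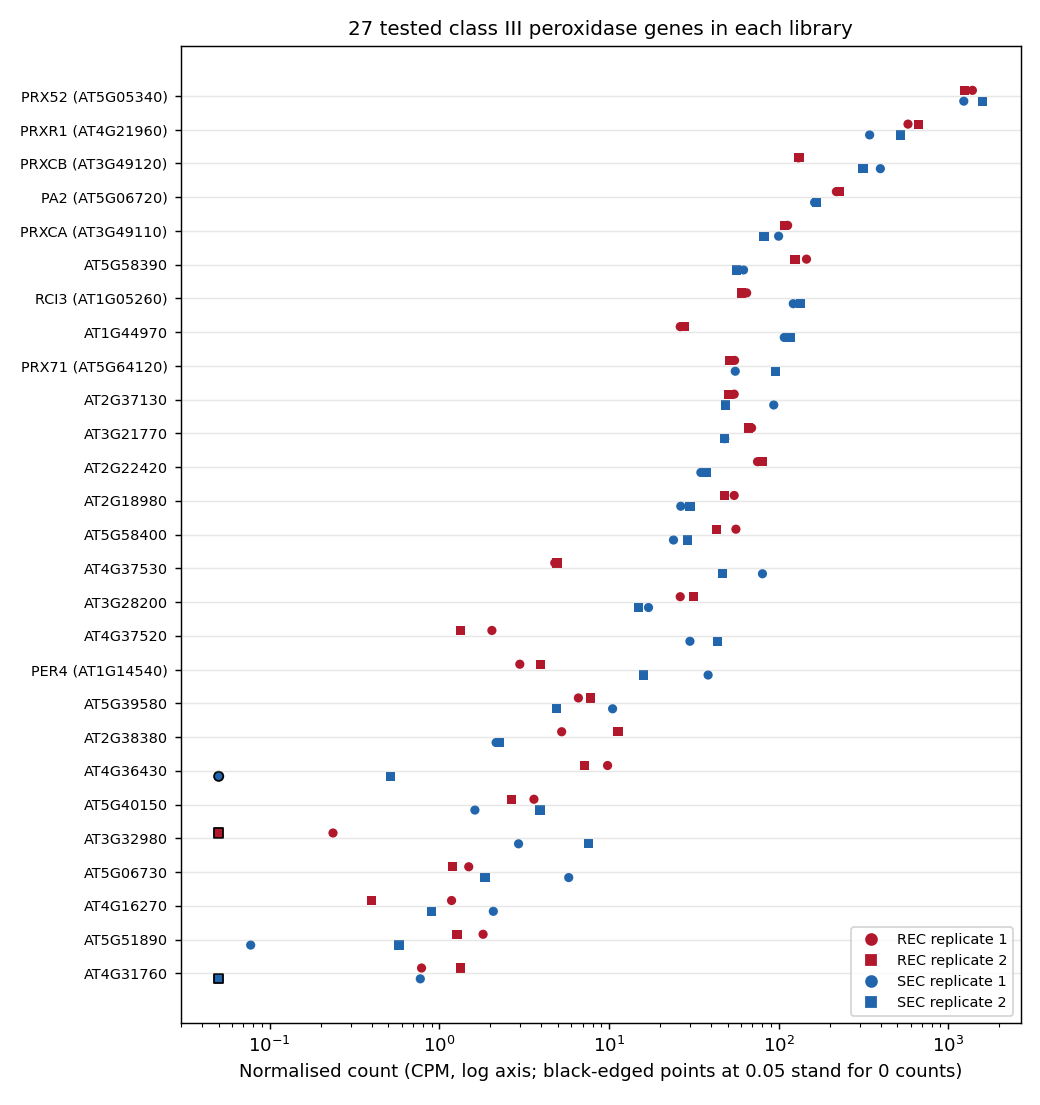
Normalised counts of the 27 tested members in each of the 4 libraries (CPM, log axis), ordered by mean level, with REC in red and SEC in blue. PRX52 is at the top with 1388 and 1251 CPM in REC and 1235 and 1588 CPM in SEC, and the REC and SEC points are furthest apart for AT4G37520, AT4G37530, AT3G32980 and AT4G36430; black-edged points drawn at 0.05 stand for 0 counts.

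The 2 most abundant members, PRX52 and PRXR1, did not pass the test. PRX52 (AT5G05340), known for its part in lignin formation in stem fibres, had 1388 and 1251 CPM in REC libraries, against 1235 and 1588 CPM in SEC libraries. The REC libraries lay between the SEC libraries, and the log2 difference was -0.10 ± 0.18 (edgeR adjusted p = 0.789). PRX52 alone gave 48.3% and 45.2% of the family's level per kilobase in REC libraries and 44% and 49.9% in SEC libraries. It was first in both cell types, at 1012 CPM per kilobase on average in REC and 1082 in SEC.

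PRXR1 (AT4G21960) was second in both cell types. It had 579 and 669 CPM in REC libraries, against 344 and 522 CPM in SEC libraries, and both REC libraries were the higher (log2 0.53 ± 0.25, edgeR adjusted p = 0.275). Per kilobase, PRXR1 averaged 341 CPM in REC and 237 CPM in SEC. In SEC it could not be set apart from PRXCB, since PRXR1 had 188 and 286 CPM per kilobase in the SEC libraries and PRXCB 262 and 207, whereas in REC PRXR1 lay above PRXCB in both libraries, with 316 and 366 against 85.8 and 87.

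PA2 (AT5G06720, peroxidase 53), 3rd per kilobase in REC and 4th in SEC, had 219 and 229 CPM in REC libraries, against 163 and 168 CPM in SEC libraries. The groups did not overlap, but the difference did not pass the test (log2 0.44 ± 0.17, edgeR adjusted p = 0.21). Its neighbour AT5G06730, with 84.5% protein identity, stood at a small fraction of that level, with 1.49 and 1.2 CPM in REC libraries, against 5.79 and 1.86 CPM in SEC libraries (2.83-fold lower in REC, edgeR adjusted p = 0.31). SEC replicate 1 set the size of that difference: the log2 value was -0.47 without it and between -0.47 and -2.09 on leaving out each library.

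PRX71 (AT5G64120), a wall peroxidase linked to lignification, had 55 and 51.6 CPM in REC libraries, against 55.5 and 95.7 CPM in SEC libraries (log2 -0.50 ± 0.31, edgeR adjusted p = 0.396). Here the first SEC replicate was level with REC and the second was higher. AT2G37130 had 54.7 and 51 CPM in REC libraries, against 93.6 and 48.6 CPM in SEC libraries, with overlap (log2 -0.43 ± 0.35, edgeR adjusted p = 0.523). The SEC replicates differed from each other more than the REC replicates did over all genes averaging above 5 CPM, and the difference moved with transcript length: SEC replicate 1 over SEC replicate 2 had a median log2 ratio of 0.71 for transcripts up to 1000 bases and of -0.96 for those over 3000. The tested members have 981 to 1829 bases. Over the same genes the median REC minus SEC difference was -0.19 up to 1000 bases, -0.08 over 1000 and up to 1500 bases, and 0.03 over 1500 and up to 2000 bases. With the length trend removed, 4 members were higher in REC and 7 in SEC, where 4.75% and 9.13% of all genes were.

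**Figure D4:**
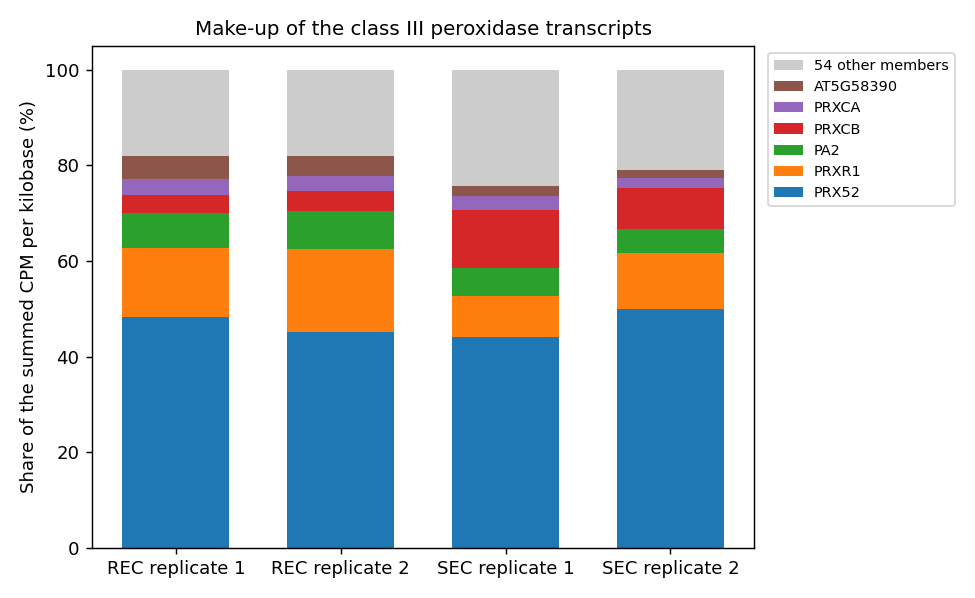
Share of the family's summed CPM per kilobase taken by each of 6 members and by the other 54, in percent, in each library. The 6 are PRX52, PRXR1, PA2, PRXCB, PRXCA and AT5G58390, the first 6 per kilobase in REC. In SEC, RCI3 ranked 5th and AT1G44970 6th, and both are drawn among the other 54. PRX52 takes between 44% and 49.9% in every library, and PRXCB takes 3.89% and 4.1% in REC, against 12.2% and 8.47% in SEC.

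Several peroxidases known for lignin were at or near 0. PRX72 (AT5G66390), known for lignin in stems, had no count in any library. PRX25 (AT2G41480), also annotated for lignin, had 0 and 0 counts in REC libraries and 1 and 1 in SEC libraries. PER64 (AT5G42180), which builds the lignin of the Casparian strip in roots, had 5 and 4 counts in REC libraries and 2 and 3 in SEC libraries, and a difference was not detectable at this depth. AT1G05240 and AT1G05250 encode identical proteins, and all 50-base windows within the exons of AT1G05250 occur elsewhere in the nuclear genome. Their 2 counts each, all in SEC libraries, are therefore uncertain.

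The other members that were not tested held few counts. Prx37 (AT4G08770), the most counted of them, had 1 and 7 counts in REC libraries and 10 and 10 in SEC libraries. AT4G33420 had 4 and 2 counts in REC libraries and 4 and 10 in SEC libraries. AT1G30870 had its 11 counts, and AT1G71695 its 8, in a single library, SEC replicate 2 for AT1G30870 and REC replicate 2 for AT1G71695. No member that was not tested exceeded 0.772 CPM in any library. Of the 12 neighbouring pairs, 3 had both members past the filter on low counts, 5 had neither and 4 had one of the 2. Over all 1770 pairs of the 60 proteins the identity had a median of 41.5% and a minimum of 30.5%.

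Genes related to peroxidase function, 74 in 8 lists, were also compared: they make or oxidise monolignols, make or remove hydrogen peroxide, scaffold the Casparian strip or repress peroxidase genes. Of the 46 that were tested, 0 were higher in REC and 8 were higher in SEC by edgeR (17.4%, against 2.18% of all genes). At an unadjusted p under 0.05 there were 5 in REC (10.9%, near the 9.46% of all genes) and 16 in SEC (34.8%, against 14.1%). DESeq2 called 2 in REC and 14 in SEC, where it called 4.15% and 8.56% of all genes. Of the 18 genes of monolignol synthesis, which makes the units that peroxidases and laccases couple, 17 were tested and 7 were higher in SEC (41.2%, against 2.18% of all genes). They were PAL1, C4H, 4CL1, 4CL3, HCT, CCoAOMT1 and CAD5, and the median log2 difference over the 17 was -1.21. 4CL1, which activates hydroxycinnamic acids, had 71.4 and 71.9 CPM in REC libraries, against 386 and 443 CPM in SEC libraries (log2 -2.53 ± 0.19, edgeR adjusted p = 0.0267). 4CL3, of the same enzyme family, had 2.43 and 3.74 CPM in REC libraries, against 20.6 and 19.3 CPM in SEC libraries (log2 -2.68 ± 0.36, edgeR adjusted p = 0.038). Both had their SEC libraries far above their REC libraries. 4CL2 lay the other way, with 98.2 and 106 CPM in REC libraries, against 46.7 and 78.7 CPM in SEC libraries, and did not pass the test (log2 0.70 ± 0.30, edgeR adjusted p = 0.241). COMT1, a methyltransferase of the pathway, had 110 and 100 CPM in REC libraries, against 110 and 97.1 CPM in SEC libraries, which overlapped.

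Laccases oxidise monolignols with oxygen in place of hydrogen peroxide. Of 17, 4 were tested and 1 passed, LAC7, with 2 counts in REC and 699 in SEC, a SEC-to-REC ratio of 340 with an exact 95% counting interval of 93.7 to 2810. The summed level of the 17 was 6.12 and 7.54 CPM in REC libraries, against 18.4 and 45.1 CPM in SEC libraries, far below the peroxidase sum in every library. LAC7 made up most of the SEC sums, with 17 and 30.7 CPM. Of the other tested laccases, LAC6 and LAC13 had log2 differences of 0.76 and 2.37 and LAC15 one of -8.99, without passing the test. The sums thus do not describe the laccases as a group.

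Genes that make or remove hydrogen peroxide showed no member past the edgeR test. NADPH oxidases (4 of 10 tested) had a median log2 difference of 0.68, superoxide dismutases (7 of 7 tested) of 0.01, catalases (3 of 3) of -0.13 and ascorbate peroxidases (7 of 8) of 0.30. The abundant NADPH oxidases RBOHD and RBOHF, at 229 and 137 CPM on average, overlapped between the groups (log2 -0.11 and 0.22). RBOHE and RBOHG, at 0.902 and 3.45 CPM, had log2 differences of 1.14 and 1.25. The NADPH oxidase median lies between these pairs and describes neither. At an unadjusted p under 0.05, 1 superoxide dismutase, FSD3, and 3 ascorbate peroxidases, APX4, APX6 and TAPX, were higher in REC. The list of the Casparian strip scaffold and its regulators had 2 of 9 genes tested and none past the threshold. CASP2, a scaffold protein of that strip, had 46.2 and 45.9 CPM in REC libraries, against 30.9 and 30.9 CPM in SEC libraries (log2 0.58 ± 0.22, edgeR adjusted p = 0.19). The 2 listed repressors of peroxidase genes were both tested and had a median of -0.33, with neither past the threshold.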

How the data were processed

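RNA from sorted protoplasts was amplified with SMART-Seq and sequenced on Illumina libraries, 2 per cell type, per the labels' protocols. The deposited counts are the authors' whole-number read counts per gene, not normalized. Per the submitters' processing notes, the tools include TopHat2 2.0.9 and HTSeq 0.6.1, besides DESeq2, Picard 1.119, Trimmomatic 0.32.3, FastQC 0.11.2 and bcl2fastq 1.8.4, with the build TAIR10. Settings and annotation, not given in the sources used here, cannot be listed. The closing summary lines of each table were kept out of library sizes: reads outside genes equalled 46.81% and 46.82% of the REC totals and 47.74% and 47.34% of the SEC totals, and reads with several places 7.48% and 7.03%, and 5.64% and 5.74%.

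Counts were scaled by TMM, filtered with filterByExpr and tested two-sided with edgeR 4.0.16 (limma 3.58.1, R 4.3.3) without a replicate block; DESeq2 1.42.0 and limma voom were alternatives. Fold changes are REC minus SEC with 2 residual degrees of freedom, and an adjusted p under 0.05 counts as past the threshold. The smallest adjusted p over all genes was 0.0267. The steps were tested on simulated data. Windows of 50 bases, lengths, names (12 of 60 members), proteins and sequences came from RefSeq TAIR10.1; the count tables carry no coordinates. Genes under 10 CPM on average were described only to account for every tested member; those at 10 CPM or more, members known for lignin and the leading related genes were named by rule. Members and lists were chosen with earlier results of these data known. The genotype labels number the reporter's promoter differently in each sample, and the design text names QRT2. No 2 tables were identical; the chi-square per degree of freedom between replicates was 5.39 for REC and 70.8 for SEC.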

Additional observations from a re-analysis of the deposited data

How the results depend on the processing

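The members higher in REC and in SEC numbered 0 and 4. They numbered 3 and 6 without a filter on low counts, when 45 members were tested (1.21% and 3.61% of all genes), 4 and 7 with DESeq2 (4.15% and 8.56%), 4 and 7 with the length trend removed (4.75% and 9.13%), 3 and 6 with a replicate block and the length trend removed (4.12% and 8.43%), and 0 and 3 under upper-quartile scaling (0.473% and 1.38%). The labels number the replicates 1 and 2 in both groups. The log2 difference of replicate 1 from replicate 2 in REC had a correlation of 0.0384 with that in SEC, over 18384 genes. That value cannot show whether same-numbered libraries share a plant, sort or batch, which the labels do not state. With a replicate block the counts were 3 and 7 (2.86% and 6.32% of all genes). Leaving out 1 library gave 0 to 12 members higher in REC and 2 to 9 higher in SEC. Leaving out SEC replicate 1 gave 12 and 9 (18.7% and 20% of all genes), and leaving out SEC replicate 2 gave 11 and 9 (29.4% and 26.1%), in fits where the REC pair alone sets the spread. Leaving out REC replicate 1 gave 0 and 2 (0.146% and 0.448%), and leaving out REC replicate 2 gave 1 and 3 (0.397% and 1.3%), in fits where the SEC pair does. All 4 members higher in SEC kept the call under RLE scaling, no filter, DESeq2, limma voom, the block and the length correction, and AT4G37520 and AT4G37530 kept it under every alternative run.

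Related genes higher in REC and SEC (0 and 8) numbered 2 and 14 with DESeq2, 2 and 14 with the length trend removed, 1 and 15 with that and the replicate block, 0 and 13 with the replicate block alone and 0 and 5 under upper-quartile scaling; leaving out 1 library gave 0 to 13 and 3 to 21. With no library left out, those fits tested 46 related genes, and with 1 left out they tested 48 to 51. The shares of all genes higher in each direction in the same fits are given above. The 13 higher in REC, without SEC replicate 2, were a smaller share of the related genes tested than of all genes. The 21 higher in SEC, on leaving out either SEC replicate, were a larger share. Without REC replicate 1, HCT, CCoAOMT1 and 4CL3 lost the call, and LAC7 lost it with limma voom (adjusted p = 0.0955). Some members changed sign: AT2G37130 to 0.12 without SEC replicate 1 (leaving out 1 library, -0.81 to 0.12); PRX52 to 0.005 with the block and length correction and 0.11 without SEC replicate 2 (-0.27 to 0.11); AT5G40150 to -0.04 without REC replicate 1 and -0.32 without SEC replicate 1 (-0.32 to 0.96); and AT5G39580 to 0.04 (limma voom), 0.05 (length trend removed), 0.09 (block and length correction), 0.05 (without REC replicate 1) and 0.56 (without SEC replicate 1), with -0.54 to 0.56 on leaving out 1 library. Of these, AT2G37130 was past the threshold without SEC replicate 2 (adjusted p = 5.08e-05) and PRX52 without SEC replicate 1 (adjusted p = 0.0135), both lower in REC. The cause of these changes was not tested.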
